A study of Homo sapiens with 9 samples.

Results

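Cornified envelope and squamous differentiation genes were examined in MCF10A, an established line of human breast epithelial cells that is not derived from a tumour. The set was a list of 38 genes named by their annotated symbols, 37 of them among the 18852 genes with a named probe on the Illumina bead arrays. A gene counted as measured where a probe had a detection p under 0.01 on at least 3 of the 9 arrays, and its brightest such probe was used. By that rule 17 of the 38 were measured, 20 were not, and TP63 was not analysed here. The 3 groups of 3 arrays were MCF10A cells with a scramble hairpin, with RND1 hairpin sh-34 and with RND1 hairpin sh-35. Every group carried its hairpin on a lentivirus and went through puromycin selection, so infection and drug were shared by the control. The labels give no harvest time, hairpin sequence or statement that replicates were separate cultures, so the p-values rest on the spread among these arrays alone, and that spread may be technical.

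In stratified squamous epithelium, cells leaving the basal layer build a cornified envelope beneath the plasma membrane. Involucrin (IVL), small proline-rich proteins (SPRR) and other precursors are crosslinked there by transglutaminase 1 (TGM1), while kallikrein proteases (KLK) later cut the desmosomes that hold the outer cells together. Transcription factors of the grainyhead-like family, KLF4, OVOL1, ZNF750 and p63 control steps of this programme. Many of the structural genes lie in clusters, the SPRR, IVL and FLG genes within the epidermal differentiation complex of chromosome 1 and the kallikreins on chromosome 19. Of the 38 genes, 10 lie on chromosome 1 and 11 on chromosome 19 in the GRCh38.p14 gene table, and 6 of each were measured. These counts are of whole chromosomes, not of the clusters. Those measured on chromosome 1 include CRABP2, GRHL3 and SFN, and of the listed kallikreins only KLK5 and KLK7 were measured.

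Promoter windows from RefSeq (build GRCh38.p14), reaching from 250 bases before to 50 after the transcription start, were matched to 30 of the genes, 15 of them measured, in 39 windows. The windows below are of genes whose levels the results turn on, namely SPRR1B (chr1:153030953-153031252, plus strand), SPRR2A (chr1:153057463-153057762, minus strand), SFN (chr1:26862899-26863198, plus strand), CALML3 (chr10:5524711-5525010, plus strand), KLK5 (chr19:50952989-50953288, minus strand) and KLF4 (chr9:107489720-107490019, minus strand). The first 5 fell with at least 1 hairpin and KLF4 rose with both. Each is written 5′ to 3′ on the gene's strand, and capitals mark matches on either strand to an AP-1 motif (TGANTCA), a grainyhead motif (AACNGGT), a KLF motif (GGGNGTG) or a TATA box (TATAAA).
SPRR1B: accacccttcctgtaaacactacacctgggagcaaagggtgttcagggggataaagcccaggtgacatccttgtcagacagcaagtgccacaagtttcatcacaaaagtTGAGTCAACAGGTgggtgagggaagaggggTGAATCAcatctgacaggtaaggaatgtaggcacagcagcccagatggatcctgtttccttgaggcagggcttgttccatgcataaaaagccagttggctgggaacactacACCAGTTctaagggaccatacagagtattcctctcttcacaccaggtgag
SPRR2A: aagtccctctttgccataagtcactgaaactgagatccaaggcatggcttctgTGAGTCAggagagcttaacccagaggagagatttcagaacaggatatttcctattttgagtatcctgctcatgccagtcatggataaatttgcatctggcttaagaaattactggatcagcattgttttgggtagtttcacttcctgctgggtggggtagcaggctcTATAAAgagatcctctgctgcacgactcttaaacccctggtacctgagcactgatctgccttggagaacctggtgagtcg
SFN: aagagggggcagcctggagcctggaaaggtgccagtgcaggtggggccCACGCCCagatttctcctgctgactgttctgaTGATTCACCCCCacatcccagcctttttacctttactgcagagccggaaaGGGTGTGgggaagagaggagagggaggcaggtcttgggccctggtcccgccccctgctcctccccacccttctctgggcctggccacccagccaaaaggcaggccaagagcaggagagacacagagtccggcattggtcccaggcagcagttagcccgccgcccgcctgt
CALML3: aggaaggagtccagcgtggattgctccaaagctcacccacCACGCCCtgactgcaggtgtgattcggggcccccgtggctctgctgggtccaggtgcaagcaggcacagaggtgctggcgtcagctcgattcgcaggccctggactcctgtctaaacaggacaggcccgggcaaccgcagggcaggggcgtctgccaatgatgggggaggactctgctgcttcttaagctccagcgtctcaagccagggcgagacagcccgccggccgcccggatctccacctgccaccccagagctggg
KLK5: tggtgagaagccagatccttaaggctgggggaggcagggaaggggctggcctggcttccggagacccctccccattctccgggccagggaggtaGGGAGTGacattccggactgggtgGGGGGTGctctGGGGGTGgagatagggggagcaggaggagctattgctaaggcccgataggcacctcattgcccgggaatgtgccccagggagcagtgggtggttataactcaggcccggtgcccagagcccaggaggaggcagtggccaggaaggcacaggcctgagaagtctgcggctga
KLF4: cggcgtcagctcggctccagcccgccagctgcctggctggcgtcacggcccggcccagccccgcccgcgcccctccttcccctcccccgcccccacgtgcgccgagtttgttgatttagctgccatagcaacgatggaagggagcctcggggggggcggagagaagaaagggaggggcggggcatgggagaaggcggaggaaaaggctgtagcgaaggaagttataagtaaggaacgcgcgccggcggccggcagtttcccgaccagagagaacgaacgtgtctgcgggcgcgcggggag
SPRR1B held 2 AP-1 and 2 grainyhead matches, and 1 of each overlap by a base. SPRR2A held 1 AP-1 match and 1 TATA box. SFN, on whose window 1 AP-1 and 3 KLF matches were found, has an AP-1 match that overlaps a KLF match. CALML3 held 1 KLF match, KLK5 held 3, and KLF4 held 0 of the 4 motifs. Among all 39 windows of the set, 10 (25.6%) held the AP-1 letters, against 7.71% of all 35116 windows in the table. The KLF letters were in 17 of the 39 (43.6%) against 30% of all windows, the TATA box in 8 (20.5%) against 11.5%, and the grainyhead letters in 3 (7.69%) against 6.46%. These counts describe the letters in the windows, with no test, and several genes have more than 1 window. The AP-1 letters, with any base at N, are looser than the AP-1 consensus. They take TGAATCA, 1 of the SPRR1B matches, and TGATTCA, the SFN match. Neither these matches nor the AP-1 shares can be read as AP-1 sites. The KLF letters likewise take any base at N, including A and G, the bases found there in the KLK5 matches. Neither the KLF matches nor the KLF shares can be read as KLF sites.

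The arrays were alike in depth of signal. Between 23.5% and 26.4% of the 48803 probes were above background on each array, and the median deposited signal lay between 46.6 and 53.4. Pearson's r of the normalized values, taken across genes, which are not independent replicates, lay at 0.993 to 0.994 for arrays of 1 group and at 0.960 to 0.973 for arrays of different groups. With 3 arrays a group, their number limits the precision. The target RND1 was above background on 0 of the 9 arrays, with signals of 27.7 to 49.6, so its loss could not be checked. The epithelial markers KRT5, KRT14, CDH1, EPCAM, KRT8 and KRT18 were above background on all 9 arrays, and the hormone receptors ESR1 and PGR on 0. Of these markers KRT14, CDH1 (log2 differences −0.76 and −1.85) and EPCAM (−0.51 and −1.88) fell with sh-34 and sh-35 (limma), KRT5 fell with sh-34, and KRT8 fell with sh-35 (−0.66). KRT8 read −0.08 with sh-34, and KRT18 read 0.40 and 0.10, not passing with either hairpin. Of the 6 fibroblast markers, DCN was the only one measured by the rule, COL1A1 was above background on 1 array, and COL1A2, COL3A1, LUM and PDGFRB on 0. The summed fibroblast marker signal was mostly DCN, at 2866 to 6340 across arrays. That sum was 4371 to 5714 in scramble, 3114 to 4040 with sh-34 and 6117 to 6602 with sh-35. Of the immune markers CD68 was measured, and PTPRC, CD3E and LYZ were above background on 0 arrays. The immune sum was mostly CD68, at 547 to 952 across arrays. That sum was 989 to 1073 in scramble, 682 to 775 with sh-34 and 1012 to 1129 with sh-35. PECAM1 was above background on 3 arrays, CDH5 and VWF on 0, and the endothelial sum was 164 to 209, 173 to 197 and 203 to 229 in the same order. The part of these shifts in the results below was not tested.

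Of the 37 genes with a named probe, 20 (54.1%) did not pass the detection rule, close to the 52.6% of all genes with a named probe. They were IVL, SPRR1A, SPRR3, KLK6, KLK8, KLK10, KLK11, the keratin-bundling protein filaggrin (FLG), SBSN, CALML5, the ammonium transporter gene RHCG, GRHL1, OVOL1, ZNF750, EHF, the desmosomal cadherins DSC1 and DSG1, corneodesmosin (CDSN), and the suprabasal keratins KRT1 and KRT13. For 19 of them no probe was above background on any array. IVL, the classical early marker of squamous differentiation, gave signals of 38.1 to 63.9 with a lowest detection p of 0.0738. FLG gave 18.7 to 41.1 and KRT1 gave 23.6 to 38.4. SPRR1A, a near neighbour of SPRR1B, was above background on 2 arrays, at 174 in scramble replicate 1 and 151 in sh-35 replicate 2. SBSN, which encodes the secreted protein suprabasin, read 50.7, 64.8 and 62.1 in scramble, 40.7, 44.1 and 54.5 with sh-34, and 107, 103 and 78.6 with sh-35. The 3 sh-35 signals were the highest of the 9, but the lowest detection p was 0.0158, so no fold is given. Without the filter on dim probes SBSN passed with sh-35 against scramble (limma adjusted p = 0.0158) and was the only 1 of the 20 to pass in any comparison.

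**Figure D1:**
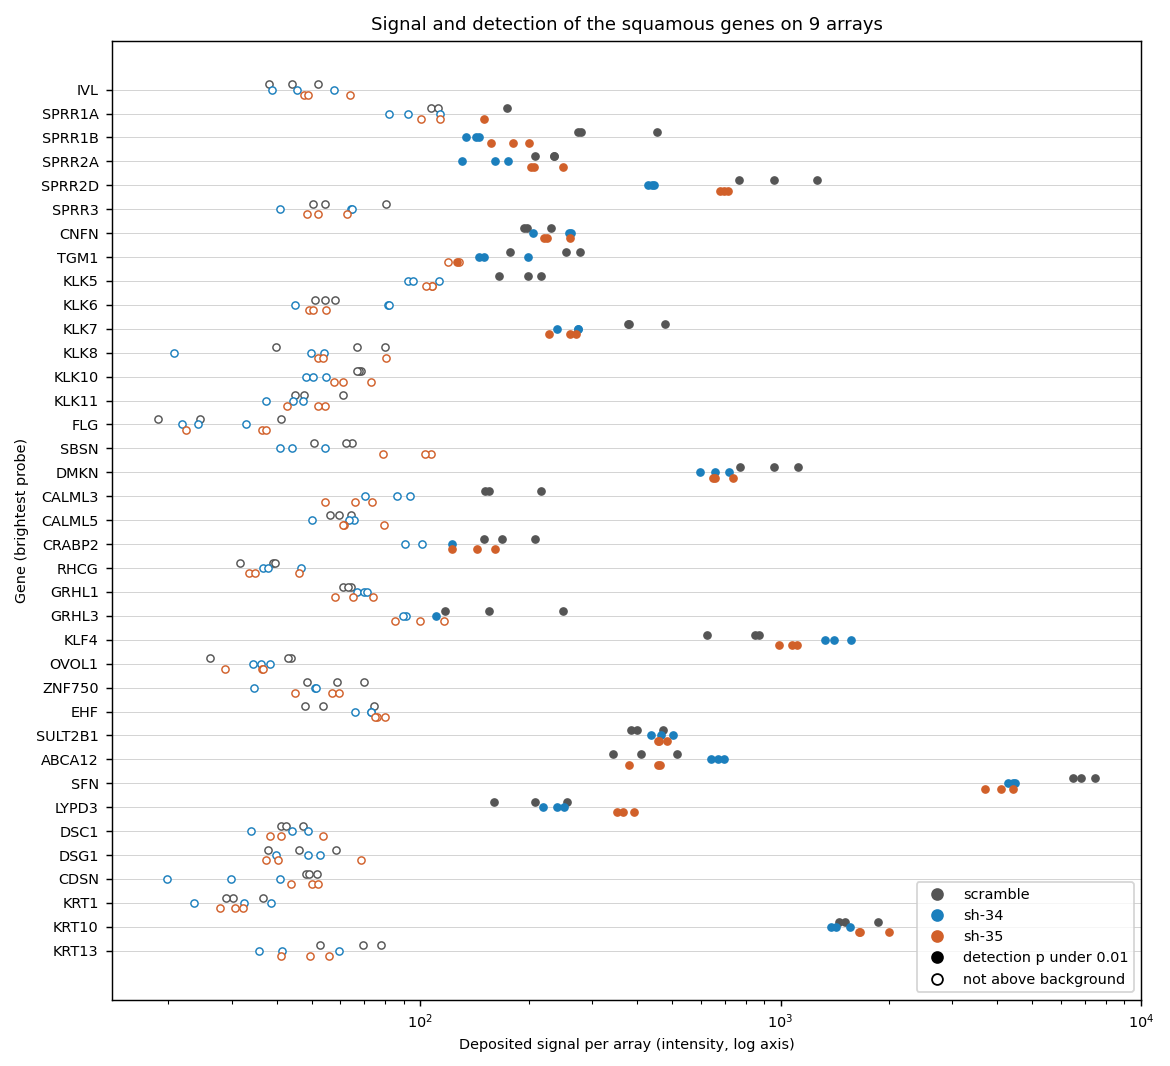
Deposited signal on a log axis for the brightest probe of each gene on each array, coloured by group; filled points had a detection p under 0.01 and open points did not. Genes such as IVL, FLG and KRT1 have open points only, while SFN has filled points only, from 3684 to 7443.

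Expression was then compared between groups on normalized log2 signals with one limma model over all 9 arrays, and a gene was called changed at a Benjamini-Hochberg adjusted p under 0.05 over the 8931 genes tested. With sh-34, 13 of the 17 measured genes changed, 11 lower and 2 higher, against 37.5% of all tested genes called (18.5% lower and 19% higher). Their median log2 difference was −0.56, against 0.02 over all genes. With sh-35, 12 of the 17 changed, 10 lower and 2 higher, against 41.8% of all tested genes (21.4% lower and 20.4% higher), with a median of −0.47 against −0.02. Both medians stayed the same with genes below background set at their bounds. Each hairpin was compared with the same 3 scramble arrays. In such bulk RNA, fewer cells expressing a gene and less of its RNA per cell cannot be told apart. Detection was uneven, with 12 genes above background on all 9 arrays and 5 on fewer. KLK5 and CALML3 were above background in scramble alone, and so could pass the rule only through the group in which they were high. GRHL3, above background on 3 scramble arrays, 1 sh-34 array and 0 sh-35 arrays, likewise passed only through scramble. KLK5, CALML3 and GRHL3 are counted among the lower genes above, so those counts rest in part on this selection. Among the 12 genes detected on all 9 arrays, 8 changed with sh-34 (6 lower, 2 higher) and 7 with sh-35 (5 lower, 2 higher). Under that same filter, 3077 of all 7775 genes tested were called with sh-34 and 3406 with sh-35.

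**Figure D2:**
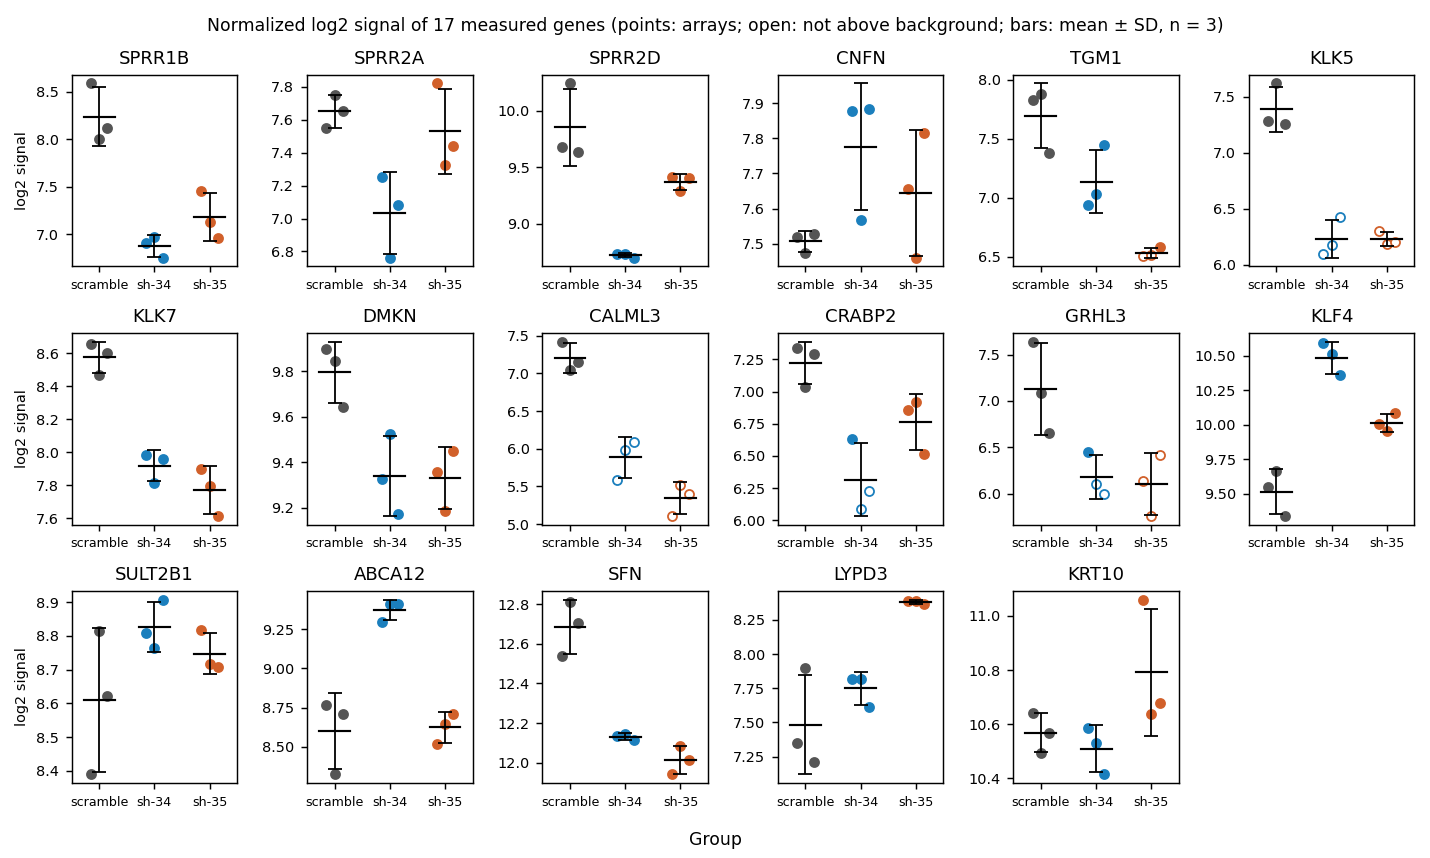
Normalized log2 signal of the 17 measured genes, 1 panel a gene, with points for single arrays (open where not above background) and bars for the mean ± SD of 3 arrays. SPRR1B, KLK5, KLK7, CALML3 and SFN have all scramble arrays above all hairpin arrays, KLF4 has them below, and KRT10 and SULT2B1 overlap between scramble and both hairpins.

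The small proline-rich genes, which encode crosslinked precursors of the envelope, were lower with sh-34 and less uniformly so with sh-35. SPRR1B read 8.59, 8.0 and 8.11 on the log2 scale in scramble, 6.91, 6.97 and 6.75 with sh-34, and 7.45, 7.13 and 6.96 with sh-35. All 3 scramble arrays lay above all 6 hairpin arrays. The sh-34 signals of SPRR1B were near background, at 134 to 146 with detection p from 0.00395 to 0.00922. SPRR1B fell 2.56-fold with sh-34 (log2 difference −1.36, SE 0.16; limma adjusted p = 5.76e-05) and 2.07-fold with sh-35 (−1.05, SE 0.16; adjusted p = 0.000252). SPRR2D read 9.68, 10.24 and 9.63 in scramble, 8.74, 8.73 and 8.70 with sh-34, and 9.41, 9.29 and 9.41 with sh-35. The 3 groups did not overlap, sh-34 being lowest and sh-35 between the others. SPRR2D fell with each hairpin, by 1.13 on the log2 scale in sh-34 cells (SE 0.14; adjusted p = 7.68e-05) and by 0.48 in sh-35 cells (SE 0.14; adjusted p = 0.0136). Without scramble replicate 2, the highest of its group, the sh-35 difference of SPRR2D was −0.29 (adjusted p = 0.02). SPRR2A, its close paralog, read 7.55, 7.75 and 7.65 in scramble, 7.25, 6.76 and 7.08 with sh-34, and 7.82, 7.33 and 7.44 with sh-35. Here the sh-34 arrays lay below the scramble arrays, whereas the sh-35 arrays spread around them. SPRR2A fell with sh-34 (−0.62, SE 0.14; adjusted p = 0.0059) and did not pass with sh-35 (−0.12; 95% confidence interval −0.44 to 0.19). SPRR2 genes are so alike in sequence that their probes may not tell them apart.

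TGM1, the membrane-bound enzyme that crosslinks these precursors, fell with both hairpins and was lowest with sh-35. It read 7.83, 7.88 and 7.38 in scramble, 6.94, 7.03 and 7.44 with sh-34, and 6.50, 6.51 and 6.58 with sh-35, where it was above background on 1 of 3 arrays. The sh-35 arrays lay below the other 6, while 1 sh-34 array reached into the range of scramble. TGM1 fell by 0.56 on the log2 scale in sh-34 cells (SE 0.15; limma adjusted p = 0.0123) and by 1.16 in sh-35 cells (SE 0.15; adjusted p = 8.41e-05). The sh-34 call was lost without scramble replicate 2 (−0.46, adjusted p = 0.0521) or without sh-34 replicate 1 (−0.46, adjusted p = 0.0514). CNFN, which encodes the envelope component cornifelin, did not pass with either hairpin. CNFN averaged 7.51 ± 0.03 in scramble, 7.78 ± 0.18 with sh-34 and 7.64 ± 0.18 with sh-35 (SD, n = 3), with log2 differences of 0.27 (95% confidence interval 0.03 to 0.51) and 0.14 (−0.10 to 0.38). Without sh-34 replicate 2 the first of these passed, at 0.37 (adjusted p = 0.0238).

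The kallikreins KLK5 and KLK7, which degrade corneodesmosomes in the outer epidermis, fell with both hairpins. KLK7 read 8.65, 8.47 and 8.60 in scramble, 7.98, 7.81 and 7.96 with sh-34, and 7.90, 7.80 and 7.62 with sh-35. No hairpin array reached the scramble range. KLK7 fell by 0.65 on the log2 scale in sh-34 cells (SE 0.10; limma adjusted p = 0.000302) and by 0.80 in sh-35 cells (SE 0.10; adjusted p = 4.64e-05). KLK5, which can activate KLK7, read 7.28, 7.62 and 7.26 in scramble and lay below background on all 6 hairpin arrays, at 6.10, 6.18 and 6.43 with sh-34 and 6.30, 6.19 and 6.20 with sh-35. Set against the lowest signal called above background on those arrays, KLK5 was at least 1.73-fold lower with sh-34 (adjusted p = 2.05e-05) and at least 1.70-fold lower with sh-35 (adjusted p = 1.18e-05). Here and below, the adjusted p beside a bound tests the fitted difference, not the bound. KLK5 passed the detection rule only through scramble, so its p-values are no separate support for a fall. A second KLK5 probe, above background on 1 scramble array, averaged 6.67 in scramble, 5.53 with sh-34 and 5.60 with sh-35, and the remaining KLK5 probe was above background on 0 arrays. In the authors' deposited table, KLK5 has a fold change of −1.93 with sh-34 and −1.80 with sh-35, and SFN has −1.57 and −1.70. These were the 2 genes of the set among the 358 probes of that table.

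Calmodulin-like protein 3 (CALML3), a calcium-binding protein of epithelial cells, was above background in scramble alone. It read 7.42, 7.04 and 7.15 in scramble, 5.58, 5.98 and 6.09 with sh-34, and 5.11, 5.52 and 5.40 with sh-35. No hairpin array reached the scramble range. CALML3 was at least 1.53-fold lower with sh-34 (limma adjusted p = 5.31e-05) and at least 1.5-fold lower with sh-35 (adjusted p = 2.68e-06). CALML3 too passed the detection rule only through scramble, so these p-values are no separate support for a fall. CRABP2, which carries retinoic acid to its nuclear receptor, read 7.34, 7.04 and 7.30 in scramble, 6.63, 6.09 and 6.23 with sh-34, and 6.86, 6.92 and 6.52 with sh-35. Both hairpin groups lay below scramble, and 1 of the 3 sh-34 arrays was above background. CRABP2 fell by 0.91 on the log2 scale with sh-34 (SE 0.15; adjusted p = 0.000688) and by 0.46 with sh-35 (SE 0.15; adjusted p = 0.0281). The sh-35 call was lost without scramble replicate 1 (adjusted p = 0.0899), scramble replicate 3 (0.0812) or sh-35 replicate 3 (0.112), in the series matrix values (−0.30, adjusted p = 0.0873), and without the filter on dim probes (0.0741).

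DMKN, which encodes the secreted protein dermokine of the granular layer, was measured by 3 probes. The brightest read 9.90, 9.85 and 9.64 in scramble, 9.33, 9.52 and 9.17 with sh-34, and 9.36, 9.18 and 9.45 with sh-35, with all hairpin arrays below scramble. DMKN fell by 0.46 on the log2 scale in sh-34 cells (SE 0.11; limma adjusted p = 0.00781) and by 0.47 in sh-35 cells (SE 0.11; adjusted p = 0.00565). In a fit over all probes the other 2 gave −0.25 (adjusted p = 0.0941) and −0.30 (adjusted p = 0.0268) with sh-34, and −0.59 (adjusted p = 0.00135) and −0.61 (adjusted p = 0.000343) with sh-35. DMKN has several known transcript forms, and which of them each probe reads is not given in the sources used here. SFN, encoding 14-3-3 sigma, a protein of differentiating keratinocytes that also acts in cell cycle arrest, read 12.54, 12.81 and 12.71 in scramble. It read 12.14, 12.14 and 12.11 with sh-34 and 11.94, 12.08 and 12.01 with sh-35, with no overlap between scramble and either hairpin. SFN fell by 0.55 on the log2 scale with sh-34 (SE 0.09; adjusted p = 0.00048) and by 0.67 with sh-35 (SE 0.09; adjusted p = 8.45e-05).

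The 2 measured transcription factors moved in opposite directions. KLF4, a zinc finger factor needed for the skin barrier in mice, read 9.55, 9.66 and 9.34 in scramble, 10.59, 10.51 and 10.36 with sh-34, and 10.01, 9.95 and 10.08 with sh-35. The 3 groups did not overlap, scramble being lowest and sh-34 highest. KLF4 rose 1.96-fold with sh-34 (log2 difference 0.97, SE 0.10; limma adjusted p = 2.44e-05) and 1.41-fold with sh-35 (0.50, SE 0.10; adjusted p = 0.00183). Its second probe was above background on 1 scramble array, and averaged 5.89 in scramble, 6.09 with sh-34 and 5.65 with sh-35. GRHL3, a grainyhead-like factor that activates TGM1 in mouse skin, read 7.64, 7.09 and 6.65 in scramble, 6.44, 6.10 and 5.99 with sh-34, and 6.14, 5.76 and 6.42 with sh-35. The scramble arrays spanned a wide range (SD 0.50), and all lay above the hairpin arrays. GRHL3 fell by 0.95 with sh-34 (SE 0.23; adjusted p = 0.00741), where 1 array was above background. With sh-35, where no array was, GRHL3 was at least 1.42-fold lower (adjusted p = 0.00389). GRHL3 too passed the detection rule only through scramble, so its p-values are no separate support for a fall. The other GRHL3 probes were above background on 1 and 0 arrays.

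The barrier lipid genes of the set, ABCA12 and SULT2B1, and also LYPD3 and KRT10, were not called lower with either hairpin. ABCA12, the lipid transporter of lamellar granules, read 8.77, 8.33 and 8.71 in scramble, 9.30, 9.41 and 9.41 with sh-34, and 8.52, 8.65 and 8.71 with sh-35. The sh-34 arrays lay above the other 6. ABCA12 rose with sh-34 (log2 difference 0.77, SE 0.11; limma adjusted p = 0.000339) and did not pass with sh-35 (0.02; 95% confidence interval −0.23 to 0.27). SULT2B1, which makes cholesterol sulfate, did not pass with sh-34 (0.22; −0.01 to 0.45) or sh-35 (0.14; −0.09 to 0.37), although it passed with sh-34 without scramble replicate 2 (0.32, adjusted p = 0.0307).

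LYPD3, a surface protein of suprabasal keratinocytes, read 7.35, 7.90 and 7.21 in scramble, 7.82, 7.82 and 7.61 with sh-34, and 8.39, 8.39 and 8.37 with sh-35. The sh-35 arrays lay above all others, and scramble and sh-34 overlapped. LYPD3 rose with sh-35 (0.90, SE 0.15; limma adjusted p = 0.000497). It did not pass with sh-34 (0.27; 95% confidence interval −0.06 to 0.59), but did so without scramble replicate 2 (0.47, adjusted p = 0.0042). KRT10, the suprabasal keratin that pairs with KRT1, averaged 10.57 ± 0.07 in scramble, 10.51 ± 0.09 with sh-34 and 10.79 ± 0.23 with sh-35 (SD, n = 3). KRT10 did not pass with either hairpin, with intervals of −0.30 to 0.19 and −0.02 to 0.47. The basal keratin KRT14, by comparison, fell by 1.84 on the log2 scale with sh-34 (SE 0.07) and by 1.08 with sh-35 (SE 0.07), while KRT5 fell with sh-34 (−0.42, SE 0.08) and read −0.04 with sh-35.

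**Figure D3:**
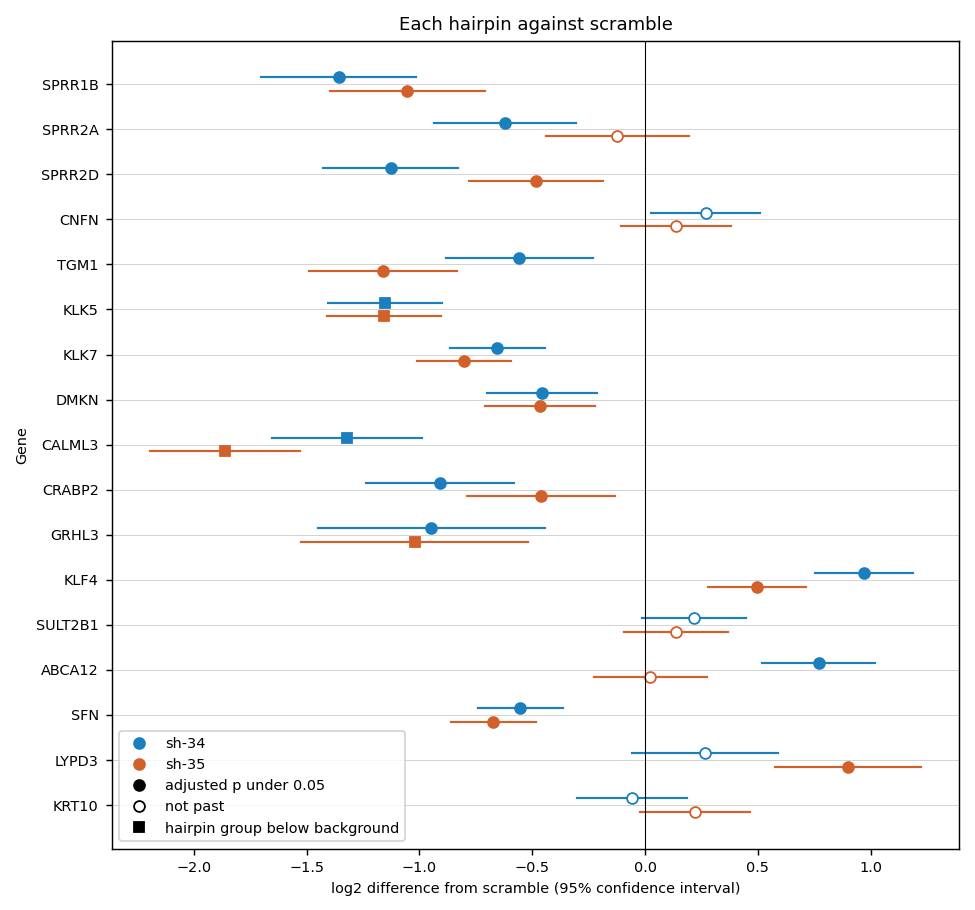
log2 difference of each hairpin from scramble for the 17 measured genes with its 95% confidence interval; filled marks passed an adjusted p of 0.05, and squares had no hairpin array above background. Most marks lie left of 0, such as SPRR1B at −1.36 with sh-34 and TGM1 at −1.16 with sh-35, while the filled marks right of 0 are KLF4, ABCA12 and LYPD3.

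The hairpins were also compared with each other, which tests whether their differences from scramble differ. Of the 17 measured genes, 8 passed, 4 higher and 4 lower with sh-35, against 42.7% of all tested genes called (20.7% higher and 22% lower). Higher with sh-35 than with sh-34 were SPRR2D (0.64, SE 0.14; limma adjusted p = 0.00272), SPRR2A (0.50, SE 0.14; adjusted p = 0.016), LYPD3 (0.63, SE 0.15; adjusted p = 0.00482) and CRABP2 (0.45, SE 0.15; adjusted p = 0.0309). Lower with sh-35 were ABCA12 (−0.75, SE 0.11; adjusted p = 0.000306), TGM1 (−0.60, SE 0.15; adjusted p = 0.0068) and KLF4 (−0.47, SE 0.10; adjusted p = 0.00261). CALML3 passed as the fourth lower gene, but it was below background with both hairpins and no fold is given. For KLK7 (−0.15; 95% confidence interval −0.36 to 0.06), DMKN (−0.01; −0.25 to 0.23), SFN (−0.12; −0.31 to 0.07) and SPRR1B (0.30; −0.04 to 0.65) the hairpins were not told apart. The DMKN value is of its brightest probe alone. In the limma fit over all probes, its other probes were lower with sh-35 than with sh-34, at −0.33 (adjusted p = 0.031) and −0.31 (adjusted p = 0.0199).

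These calls rested in part on single arrays. Without sh-35 replicate 1 the count of 8 became 5, as SPRR2A (adjusted p = 0.0627), CRABP2 (0.09) and CALML3 (0.0551) no longer passed. SPRR2A also failed without sh-34 replicate 2 (adjusted p = 0.0682), CALML3 without sh-34 replicate 3 (0.056), and CRABP2 without sh-34 replicate 2 (0.121), sh-34 replicate 3 (0.0898) or sh-35 replicate 2 (0.104). CRABP2 likewise failed without the filter on dim probes (0.0802). TGM1 still passed in the deposited series matrix, at −0.39 (adjusted p = 0.0314). KRT10, at 0.28 (adjusted p = 0.0617), passed without sh-35 replicate 2 (0.36, adjusted p = 0.0363), with a background offset of 50 (0.045), without background correction (0.049), and with probes required on all 9 arrays (0.0452).

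**Figure D4:**
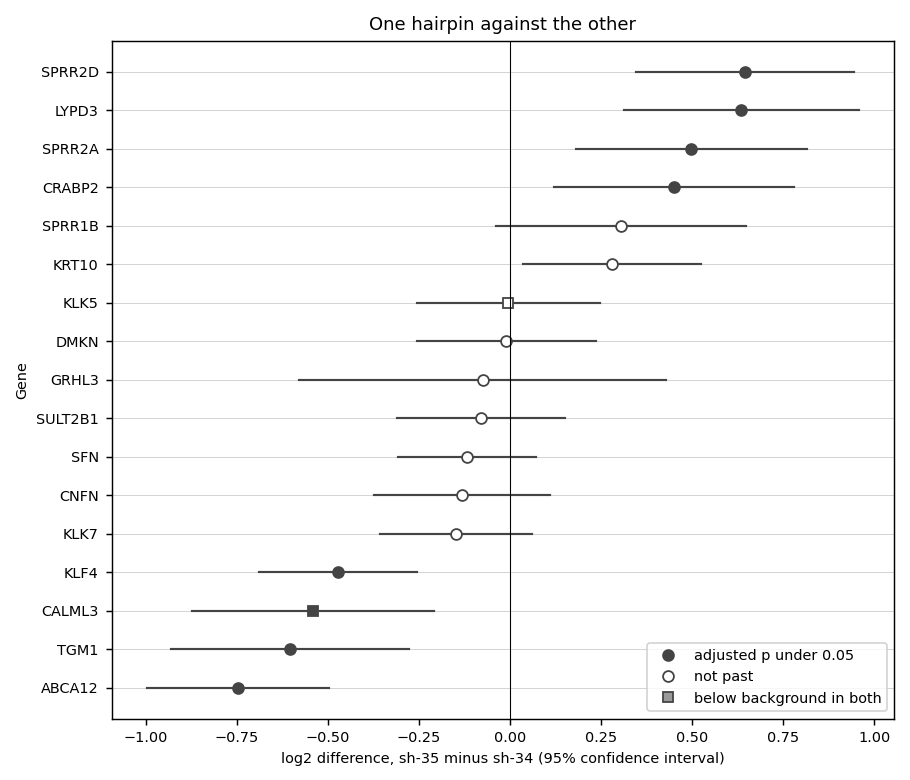
log2 difference of sh-35 minus sh-34 for the 17 measured genes, ordered by value, with 95% confidence intervals; filled marks passed an adjusted p of 0.05 and squares were below background with both hairpins. SPRR2D and LYPD3 lie at the upper end (0.64 and 0.63) and ABCA12 at the lower end (−0.75).

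Other genes of squamous differentiation were read from 5 further lists, holding 120 genes with a named probe, of which 51 were tested. With sh-34, 25 of the 51 changed (49.0%, against 37.5% of all tested genes), 19 lower and 6 higher, against 18.5% and 19% of all tested genes. With sh-35, 31 changed (60.8%, against 41.8%), 18 lower and 13 higher, against 21.4% and 20.4%. Their median log2 difference was −0.18 with sh-34 and −0.16 with sh-35, against 0.02 and −0.02 over all genes. Between the hairpins 34 of the 51 differed (66.7%, against 42.7%), 19 higher and 15 lower with sh-35, against 20.7% and 22%.

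Of 11 other envelope genes tested, 4 fell and 3 rose with sh-34 (63.6% called, against 37.5% of all tested genes), and 3 fell and 4 rose with sh-35 (63.6%, against 41.8%). LCE1B, a late envelope gene, rose with sh-34 (1.14, SE 0.14; limma adjusted p = 6.96e-05) and with sh-35 (0.44, SE 0.14; adjusted p = 0.021). The sh-35 call on LCE1B was lost without scramble replicate 2 (adjusted p = 0.0888), sh-35 replicate 1 (0.0537) or sh-35 replicate 2 (0.0863), and without the filter on dim probes (0.057). PI3, the elastase inhibitor elafin, fell with sh-34 (−0.90, SE 0.10) and rose with sh-35 (0.70, SE 0.10). ECM1, a matrix protein of the skin, rose with sh-35 (1.34, SE 0.14) and read −0.06 with sh-34. CST6, encoding the protease inhibitor cystatin M/E, was above background on the 3 sh-34 arrays alone, and so passed the detection rule only through the group in which it was high. It was at least 1.68-fold higher with sh-34 than in scramble (adjusted p = 7.24e-05), and its fitted fall with sh-35, counted above, is a difference between groups below background.

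The desquamation list had 10 tested genes, 8 proteases or inhibitors and the desmosomal cadherins DSC3 and DSG3. Of the 10, 4 fell and 1 rose with sh-34 (50% called, against 37.5% of all tested genes), and 7 fell and 2 rose with sh-35 (90.0%, against 41.8%). With sh-35 these included a rise of DSC3 (0.27) and a fall of DSG3 (−0.39). The membrane protease PRSS8 (prostasin) fell by 1.54 on the log2 scale with sh-34 (SE 0.10) and by 1.36 with sh-35 (SE 0.10). Its partner ST14 (matriptase) fell with sh-35 (−1.54, SE 0.11; limma adjusted p = 1.18e-06) and did not pass with sh-34 (−0.27, adjusted p = 0.0807), although it did without scramble replicate 1 (adjusted p = 0.0246), with median scaling (0.0218) and in the deposited series matrix (0.0371). SPINK6, a kallikrein inhibitor, fell by 0.92 with sh-34 (SE 0.17) and by 0.91 with sh-35 (SE 0.17), alongside its targets KLK5 and KLK7.

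Among 17 tested regulators of differentiation, 8 fell and 1 rose with sh-34 (52.9% called, against 37.5% of all tested genes), and 6 fell and 2 rose with sh-35 (47.1%, near the 41.8% of all tested genes). PRKCH, a protein kinase C of differentiating keratinocytes, fell with sh-34 (−1.41, SE 0.09; limma adjusted p = 8.09e-07) and read −0.03 with sh-35. SOX9, a transcription factor, fell with sh-34 (−1.23, SE 0.17) and read −0.10 with sh-35. KLF5, a relative of KLF4, fell by 0.81 with sh-34 (SE 0.14) and by 0.77 with sh-35 (SE 0.14). The Notch ligand JAG2 and the kinase RIPK4 fell with sh-35 (−1.05, SE 0.10, and −0.82, SE 0.11) and read −0.18 and −0.05 with sh-34.

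The barrier lipid list had 7 tested genes, 2 lower with sh-34 (28.6% called, against 37.5% of all tested genes), and 1 lower and 2 higher with sh-35 (42.9%, against 41.8%). One of those higher, ALOX15B, no longer passed with median scaling (adjusted p = 0.0648), with the mean of its probes (0.173), or without scramble replicate 2 (0.0548) or sh-35 replicate 3 (0.0567). The other, ABHD5, failed without scramble replicate 1 or 3, without sh-35 replicate 1 or 3, and with dim probes left in (adjusted p from 0.0544 to 0.0853). The lipase activator gene ABHD5 fell with sh-34 (−0.90, SE 0.12), and the ceramide glucosyltransferase gene UGCG fell with sh-35 (−0.73, SE 0.13). Of 6 tested suprabasal keratin and squamous mucosal genes, 1 fell and 1 rose with sh-34 (33.3% called, against 37.5% of all tested genes), and 1 fell and 3 rose with sh-35 (66.7%, against 41.8%). The sh-34 rise, of CLCA2 (0.39), was lost with median scaling (adjusted p = 0.069), in the deposited series matrix (0.0791), and without scramble replicate 2 (0.0572) or sh-34 replicate 2 (0.0617). The sh-35 fall, of KRT23 (−0.36), was lost with cyclic loess, median scaling, the deposited series matrix and looser probe filters, and without scramble replicate 2 or 3, sh-34 replicate 1, or sh-35 replicate 2 or 3 (adjusted p from 0.0549 to 0.227). The keratin KRT80 fell with sh-34 (−0.82, SE 0.16), where 1 array was above background, and rose with sh-35 (0.76, SE 0.16).

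**Figure D5:**
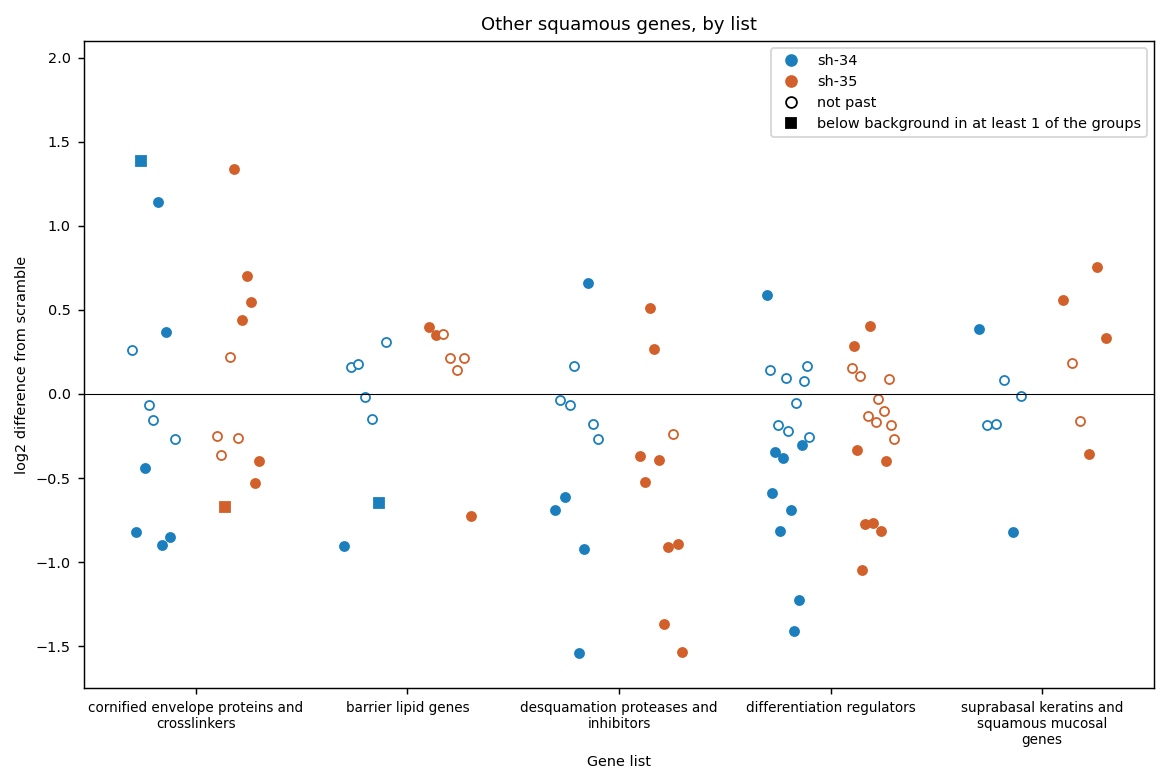
log2 difference of each hairpin from scramble for the 51 other squamous genes tested, by list; filled marks passed an adjusted p of 0.05, and squares were below background in at least 1 of the groups compared. The lowest points are PRSS8 at −1.54 with sh-34 and ST14 at −1.54 with sh-35, both proteases of the desquamation list, and ECM1 at 1.34 with sh-35 is the highest round point.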

How the data were processed

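Total RNA of 9 MCF10A samples, 3 a group, was hybridized as biotinylated cRNA to Illumina bead arrays, per the labels. BeadStudio and Partek are named in the submitters' processing notes, and no source used here gives their versions. The deposited signal table holds an intensity and a detection p-value per probe and array, per the file headers, not normalized between arrays. The deposited series matrix holds log2 values of the same signals less each probe's median plus 5.62. The authors' table of 358 probes gives p-values, a ratio and a signed fold-change score against scramble, per the file headers.

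Background was corrected with limma 3.58.1 (R 4.3.3; normal-exponential model from detection p-values, offset 16), followed by quantile normalization. Of the probes, 12866 passed a detection p under 0.01 on at least 3 arrays, and the brightest per gene gave 8931 genes. Probes were named from the platform annotation, where 28098 have 1 symbol, 13 several and 20692 are not listed. One limma model with 3 groups had 6 residual and 5.42 prior degrees of freedom. Where all arrays of a group left a gene below background, its fold is a bound set against the lowest signal called above background. The adjusted p printed beside a bound is that of the fitted difference. The model was tested on simulated data. The labels do not say that replicate numbers pair samples, so no block was used. Deviations of equal-numbered samples correlated by −0.02 to 0.05, and those of unequal-numbered samples by −0.05 to 0.04. With 3 arrays a group these values cannot exclude pairing.

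The genes, lists and tests were chosen with earlier results of these data known. All measured genes of the set are named. Of the other lists, those with the 3 largest changes per list and comparison could be named, and not every one is. Alternatives covered normalization, background correction, probe filter and choice, replicates, and samples in the fit.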

Additional observations from a re-analysis of the deposited data

Results flagged for a closer look

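Leaving out CST6, which was below background in both scramble and sh-35, 4 genes of the further squamous lists named here passed in opposite directions against scramble with the 2 hairpins, and also passed when sh-35 was compared with sh-34 (limma adjusted p over all genes). For PI3 the log2 difference of sh-35 minus sh-34 was 1.60 (SE 0.10; adjusted p = 6.24e-07). For KRT80 it was 1.57 (SE 0.16; adjusted p = 1.56e-05). For ABHD5 it was 1.30 (SE 0.12; adjusted p = 8.47e-06), though its rise over scramble with sh-35 (0.40) was lost without scramble replicate 1 or 3, without sh-35 replicate 1 or 3, and with dim probes left in (adjusted p 0.0544 to 0.0853). For CTSV, a cathepsin gene, it was 1.13 (SE 0.11; adjusted p = 1.04e-05), from −0.61 with sh-34 and 0.51 with sh-35. None of the 17 measured genes of the cornified envelope set did so.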

How the results depend on the processing

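With probes required above background on all 9 arrays, 12 genes of the set were tested and 8 changed with sh-34 and 7 with sh-35, since the genes lost to background leave the test. Of all 7775 genes tested under that filter, 3077 were called with sh-34 and 3406 with sh-35. Leaving out 1 sample at a time gave 12 to 14 changed genes with sh-34, 11 to 12 with sh-35 and 5 to 8 between the hairpins, and 23 to 27, 26 to 32 and 30 to 34 of the other squamous genes. With the replicate number as a block the counts for the set were 14, 12 and 9, adding CNFN with sh-34 (adjusted p = 0.0398) and KRT10 between the hairpins (0.0377). The labels do not say that these numbers pair the samples. Under the other alternatives run (cyclic loess, median scaling, offset 50, no background correction, series matrix values, other filters, mean of probes, 2 groups only) all counts stayed within 1.5 times, and no called gene of the set changed direction. Of 546 values for genes of the set in these alternatives and the block, 538 kept their side of the threshold, 3 lost it and 5 gained it. With 1 sample left out, 442 of 459 kept it. Values not called under either setting changed sign 29 times, over the set and the other named genes. Over all genes, the share of calls that were higher with sh-34 was 50.6%, against 39.4% after scaling to the median and 37.8% in the deposited matrix, and for sh-35 minus sh-34 it was 48.6%, against 60.4% in the series matrix values. A slide block was not run because no column name gives a slide. Signal over background limits KLK5 and CALML3, whose folds are bounds, and GRHL3, whose fold with sh-35 is a bound. It also limits TGM1 with sh-35, and CRABP2 and GRHL3 with sh-34, each above background there on 1 array. It limits SPRR1B with sh-34 too, where the signals were near background. It leaves 20 genes of the set without a level.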
